A study of Mus musculus with 2 samples.

Results

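The genes described here build and run mitosis: the cyclins and kinases that start it, the spindle, the kinetochores, the checkpoint, the separation of sister chromatids, cytokinesis and the condensins. They were taken by name as a list of 60 genes, and 59 of them had a value among 18193 genes on the array. The gene without a value was Ccnb1, cyclin B1, whose symbol stands beside no probe set in the platform annotation used here. Sgol1 was matched under its newer symbol Sgo1. A gene's value is that of its brightest probe set, the group of short probes that reads 1 transcript region. RNA from the spleens of C57BL/6 mice bearing hepatocellular carcinoma (HCC), a liver cancer, was read on Affymetrix 3' expression arrays, 1 array per group. The CD45- cells were sorted as positive for Ter119, found on the red cell lineage, and negative for CD45, the common surface protein of white cells. The CD45+ cells came from the same tumour-bearing animals and served as the control, so both groups share the tumour, the strain and the organ. The number of mice, any pooling, and whether Ter119 was used for the CD45+ cells are not given in the sources used here.

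In mitosis, Cdk1 with cyclins A and B drives chromosome condensation and spindle assembly. Kinetochores, built on centromeres, bind spindle microtubules, and the spindle assembly checkpoint holds back the anaphase-promoting complex until every chromosome is attached. That ubiquitin ligase, switched on by Cdc20 and later by Fzr1 (Cdh1), then has securin and the cyclins destroyed, so that separase cuts cohesin and the cell divides. Most of these genes are transcribed only late in the cell cycle, through NF-Y, the MuvB complex, Mybl2 and Foxm1. Red cell precursors divide several times in bone marrow or, under demand, in the spleen before they leave the cycle and lose their nucleus.

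Nearly all mitosis genes were far brighter in the CD45- cells. Of the 59, 53 were at least 4-fold higher in the CD45- array and 0 were at least 4-fold lower, whereas 11793 genes were measured in all, and 8.31% of those passed 4-fold upward and 16.8% downward. All 59 were at least 2-fold higher, as were 16.8% of all measured genes. The median log2 difference, CD45- minus CD45+, was 4.20 (18.4-fold), against -0.26 over all measured genes, and the quartiles of the members were 3.56 and 4.75. Scaling moves the whole array: the median of all measured genes was 0.01 after quantile normalization and 0.12 after centring on genes measured in both arrays. Under that centring 56 members passed 4-fold, and over all genes 1289 passed upward and 1369 downward, where the deposited scale gave 980 and 1979. At 16-fold, 37 members remained, beside a share of 2.32% among all measured genes. No replicate exists, so no difference could be tested or set against replicate spread, and the values describe these 2 arrays. Intensities of the members ran from 1259 for Cenph to 54290.0 for Mki67 in the CD45- array and from 73.5 for Cdc25c to 7035 for Pttg1 in the CD45+ array. A gene counted as measured above an intensity of 101.1, the 95th percentile of 80 probe sets for odorant and pheromone receptors, which spleen is taken not to express. All 59 passed it in the CD45- array and 56 in the CD45+ array. For Cdc25c, Ska1 and Ttk, the other 3, the difference is a lower bound against that level.

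**Figure D1:**
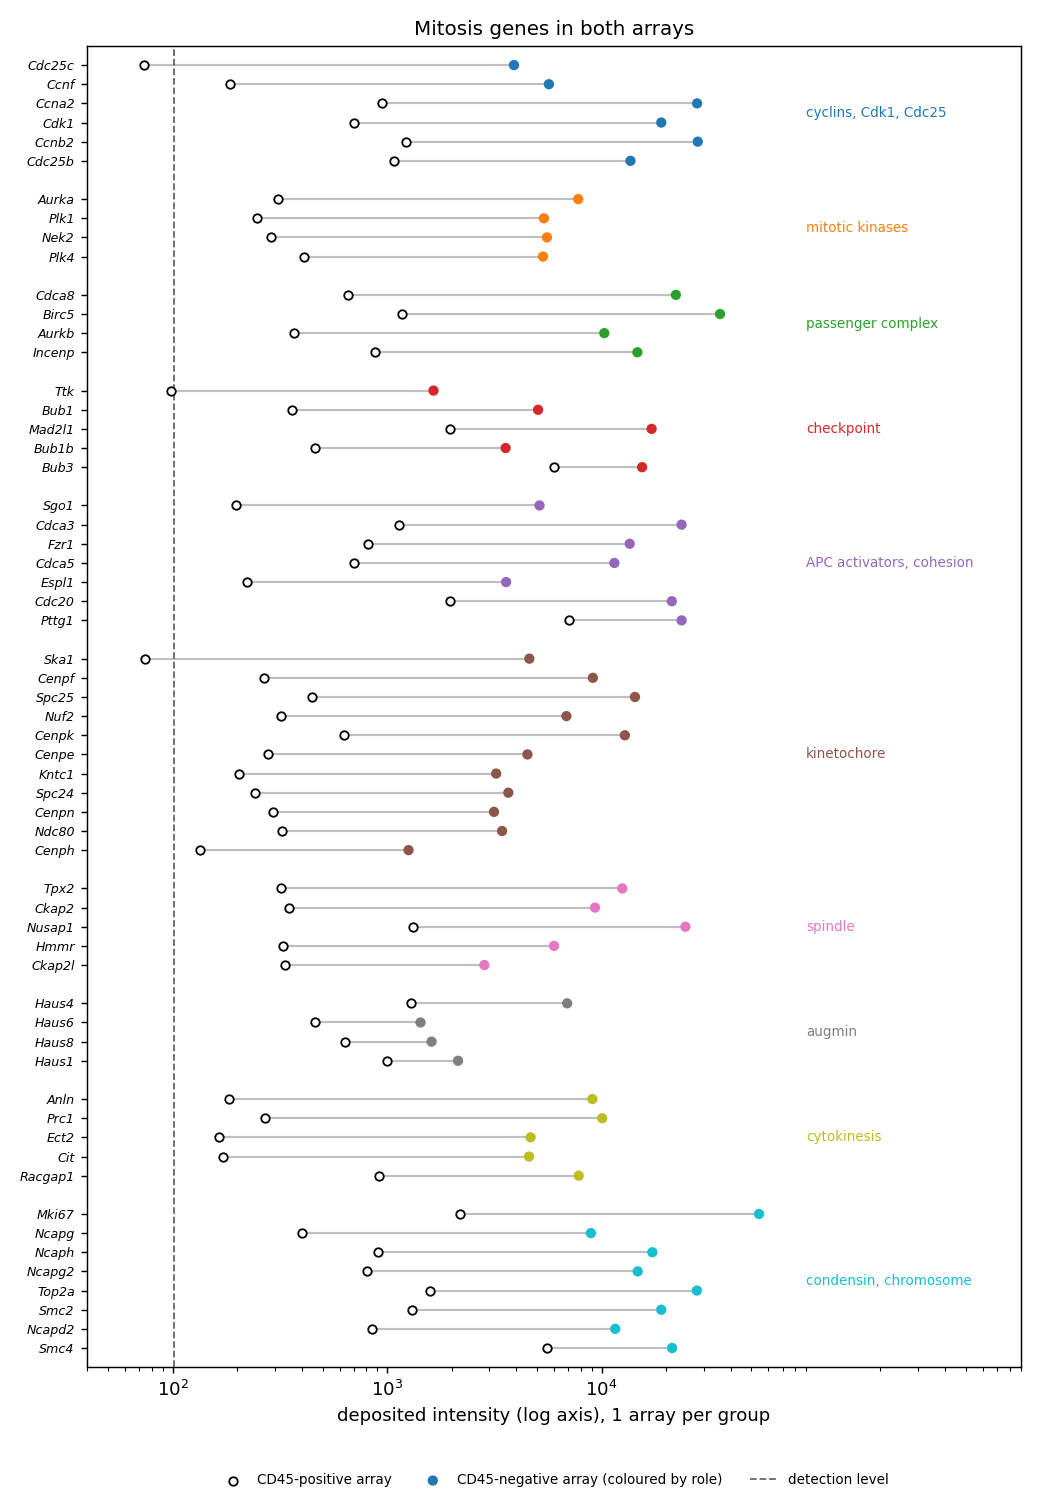
Deposited intensity (log axis) of the 59 mitosis genes in the CD45+ array (open circles) and the CD45- array (filled circles, coloured by role), with the detection level of 101.1 as a dashed line. Every filled circle lies to the right of its open circle, with short spans for Bub3, Pttg1, Smc4 and the Haus genes.

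The labelled cell types carried their markers. All 7 measured erythroid markers were at least 4-fold higher in the CD45- array, among them Alas2 (69687 against 1082) and Klf1 (42791 against 614), while Ptprc, which encodes CD45, stood at 423 against 32147. All 8 markers shared by white cells were lower, with a summed intensity of 4268 against 180309. The sums were 504 against 28543 for 5 T cell markers and 1705 against 88597 for 5 B cell markers. For 6 germinal centre and plasmablast markers they were 1297 against 43589, and for 5 natural killer cell markers 502 against 19602. The 8 markers of neutrophils and their precursors summed to 4147 against 129959. For 7 markers of macrophages, monocytes and dendritic cells the sums were 1766 against 39637. Each gene of these white cell lists was at least 4-fold lower, apart from Elane, Mpo and Flt3. Elane had 175 against 405 and Mpo 282 against 534. Flt3, under the detection level in the CD45- array, had a bound of -1.8 on the log2 scale. The 6 megakaryocyte and platelet markers moved with the mitosis genes, all at least 4-fold higher, with a sum of 34822 against 1642. Stromal markers summed to 204 against 333 and liver markers to 187 against 295, and of each list only 1 gene was measured, at 126.4 (Cdh5) and 125.5 (Afp) in the CD45+ array. Early progenitor markers summed to 1202 against 2759, and the brightest of them in the CD45- array, Myb, had 678 against 1909. Of these 6 markers, 4 were measured, 2 of them in both arrays, and 0 passed 4-fold in either direction. Gata2 went the other way, at 288 against 127, a log2 difference of 1.18. Erythroid markers were measurable in the CD45+ array too, with a sum of 10921. What part dividing white cells, megakaryocytes or erythroid cells had in the levels of the mitosis genes was not tested. A larger share of dividing cells and more RNA per dividing cell cannot be told apart in such bulk samples.

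Promoters are shown first because the members moved together, and late cell cycle genes are known for a pair of promoter elements: the cell cycle genes homology region (CHR), bound by MuvB, and the CCAAT box, bound by NF-Y. RefSeq promoter entries of GRCm38.p6 were matched for 51 of the 60 genes, with 56 promoters in all; Ccna2, Cdc25c, Aurkb, Tpx2, Incenp, Spc24, Ska1, Smc4 and Haus1 had no entry. The last 120 bases before the annotated start are printed 5' to 3' on the gene's strand, with every match to TTTGAA (CHR), its variant TTCGAA, to CCAAT or to the E2F site TTCCCGC, on either strand, in capitals. The windows on the plus strand are Espl1 at chr15:102296173-102296292, Prc1 at chr7:80294356-80294475 and Bub3 at chr7:131560250-131560369, and those on the minus strand are Cdk1 at chr10:69352913-69353032, Cdc20 at chr4:118437344-118437463, Top2a at chr11:99024190-99024309, Ccnb2 at chr9:70421555-70421674 and Haus8 at chr8:71272591-71272710.
Cdk1: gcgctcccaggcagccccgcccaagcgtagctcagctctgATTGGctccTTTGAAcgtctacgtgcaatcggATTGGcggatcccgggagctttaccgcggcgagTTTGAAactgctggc
Cdc20: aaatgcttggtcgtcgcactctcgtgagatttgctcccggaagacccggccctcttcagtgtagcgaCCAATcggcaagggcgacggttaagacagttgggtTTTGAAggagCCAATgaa
Top2a: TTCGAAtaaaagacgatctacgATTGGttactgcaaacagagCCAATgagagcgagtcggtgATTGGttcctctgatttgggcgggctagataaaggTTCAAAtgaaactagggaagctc
Espl1: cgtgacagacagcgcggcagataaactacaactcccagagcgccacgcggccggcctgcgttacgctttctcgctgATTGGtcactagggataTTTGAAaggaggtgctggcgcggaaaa
Prc1: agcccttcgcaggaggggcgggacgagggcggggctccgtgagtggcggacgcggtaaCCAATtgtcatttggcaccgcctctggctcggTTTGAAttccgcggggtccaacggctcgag
Ccnb2: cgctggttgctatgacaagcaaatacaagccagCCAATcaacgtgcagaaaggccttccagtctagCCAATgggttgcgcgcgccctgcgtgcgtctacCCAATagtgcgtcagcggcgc
Bub3: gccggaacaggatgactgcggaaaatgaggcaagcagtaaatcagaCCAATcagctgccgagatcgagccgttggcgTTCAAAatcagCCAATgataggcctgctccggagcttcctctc
Haus8: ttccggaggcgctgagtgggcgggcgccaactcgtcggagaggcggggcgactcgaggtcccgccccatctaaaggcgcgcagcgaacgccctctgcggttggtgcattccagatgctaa
Cdk1 holds 2 CHR and 2 CCAAT matches in this window, and Cdc20, Espl1 and Prc1 (the second of its 2 entries) have a CHR match at -18, -27 and -30, counted from the annotated start. In Top2a, the reverse complement TTCAAA stands at -23 behind 3 CCAAT matches, and Ccnb2 has 3 CCAAT matches with its only CHR match further upstream, at -167. The last 2 are members of small difference: Bub3 has both elements in its upstream entry, and Haus8 has none of the 4 motifs.

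Over the 250 bases before the start, on both strands, 37.5% of the members' promoters held the CHR letters TTTGAA, against 16% of all 32851 promoters of that length and 11% of those of measured genes. CCAAT was found in 73.2% of the members' promoters, against 33.8% and 35.2%, and 41.1% of them held 2 or more matches, against 10.1% and 12.6%. Both elements together occurred in 33.9%, 5.55% and 3.98% of the promoters. In other genes past 4-fold upward, the shares were 13.2% for CHR, 41.9% for CCAAT and 6.14% for both. Searched over the whole entry, which runs 50 bases past the start, CHR letters were in 60.7% of the members' promoters and in 12.4% of those of measured genes; this wider window was chosen after seeing the data. In the 250 bases, the E2F letters TTCCCGC stood in 7.14% of the members' promoters and 6.58% of those of measured genes. The GATA letters AGATAA stood in 3.57% and 6.21%. Over the whole entry, the E2F shares were 12.5% and 7.94%, with 10.2% for other genes past 4-fold upward. The GATA shares of members and measured genes were then 3.57% and 6.76%. A match in Kntc1 overlaps a CCAAT box by a base, and entries of the same gene overlap in sequence. The 19 valued members with CHR letters had a median log2 difference of 4.13 and the 31 without them 4.20. By the whole entry, 31 members had CHR letters, with a median of 4.20, and 19 had none, with a median of 4.02; in both windows the ranges of the members with and without it overlapped. A match is a description of letters and not a bound site.

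**Figure D2:**
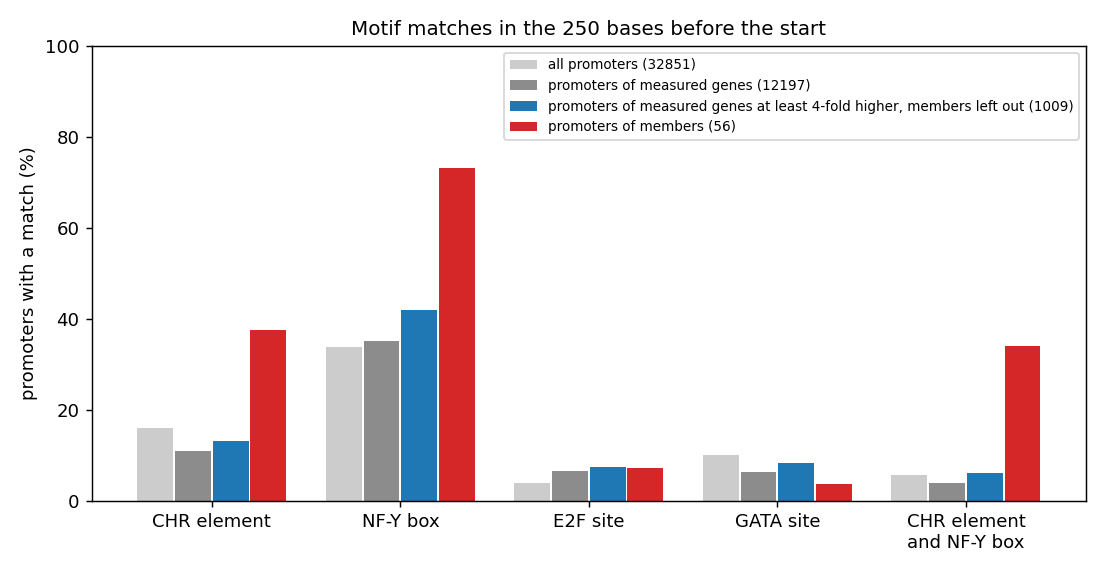
Share of promoters (percent) with a match in the 250 bases before the start, for all promoters, those of measured genes, those of other genes at least 4-fold higher and those of members; the NF-Y box is the CCAAT motif. Members stand highest for the CHR element (37.5%), the NF-Y box (73.2%) and both together (33.9%), and not for the E2F and GATA sites.

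The cyclins, their kinase and its phosphatases were among the strongest roles, with all 6 valued members at least 4-fold higher and a median log2 difference of 4.82. Ccna2, the A-type cyclin of S phase and early mitosis, stood at 27919 in the CD45- array and 945 in the CD45+ array, a 29.5-fold difference that its second probe set repeated (4.90 on the log2 scale). Ccnb2, a B-type cyclin, had 28113 against 1221 (23.0-fold). Cdk1, their catalytic partner, had 19003 against 703 (27.0-fold). Ccnf, which serves as an F-box subunit of a ubiquitin ligase rather than as a kinase activator, had 5684 against 184.5 (30.8-fold). Of the phosphatases that remove the inhibitory phosphates from Cdk1, Cdc25b had 13647 against 1072 (12.7-fold), a log2 difference of 3.67. Cdc25c had 3906 against 73.5, which is under the detection level, so that it was at least 38.6-fold higher. Its second probe set, at 1217.7 against 45.7, gave a bound of 3.59 on the log2 scale, so the gap to Cdc25b depends on the probe set.

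All 4 kinases of centrosome and spindle were at least 4-fold higher, within a narrow span of log2 differences from 3.70 to 4.64. Plk1, which acts at centrosomes, kinetochores and the cleavage site, had 5386 against 248.1 (21.7-fold). Plk4, the kinase that starts centriole duplication, had 5335 against 411 (13.0-fold). Aurka, which matures centrosomes, had 7790 against 311 (25-fold), and its other probe set was dim in both arrays at 16.4 and 11.1. Nek2, which splits the centrosomes, had 5564 against 287 (19.4-fold). The other probe sets of Nek2 gave a log2 difference of 3.53 and bounds of 2.21 and 0.11.

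The chromosomal passenger complex corrects faulty attachments and later marks the cleavage plane. Its 4 subunits were all higher, with log2 differences from 4.06 to 5.09. Aurkb, its kinase, had 10302 against 368.5 (28.0-fold), near the 25-fold of Aurka. The second probe set of Aurkb gave 4.02 on the log2 scale, so this closeness depends on the probe set. Birc5 (survivin) had 35709 against 1167 (30.6-fold), Cdca8 (borealin) 22228 against 654 (34.0-fold), and the scaffold Incenp 14699 against 881 (16.7-fold).

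The spindle assembly checkpoint was less even. Its 5 members had a median log2 difference of 3.13, and 4 of them passed 4-fold. Ttk (Mps1), the kinase at the top of the checkpoint, had 1646 against 97.9, at least 16.3-fold higher. Bub1, a checkpoint kinase, had 5061 against 359 (14.1-fold), and the related Bub1b (BubR1), part of the complex that inhibits Cdc20, 3572 against 462 (7.74-fold). The other probe sets of Bub1b gave 3.98 and, at 102.4 against 34.9, a bound of 0.02. Mad2l1 (Mad2), which binds Cdc20 directly, had 17124 against 1957 (8.75-fold). Bub3, which brings the Bub kinases to kinetochores, had 15468 against 5973, only 2.59-fold. Its other 4 probe sets gave log2 differences of 0.49, 1.18 and 1.57 and a bound of 0.87.

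**Figure D3:**
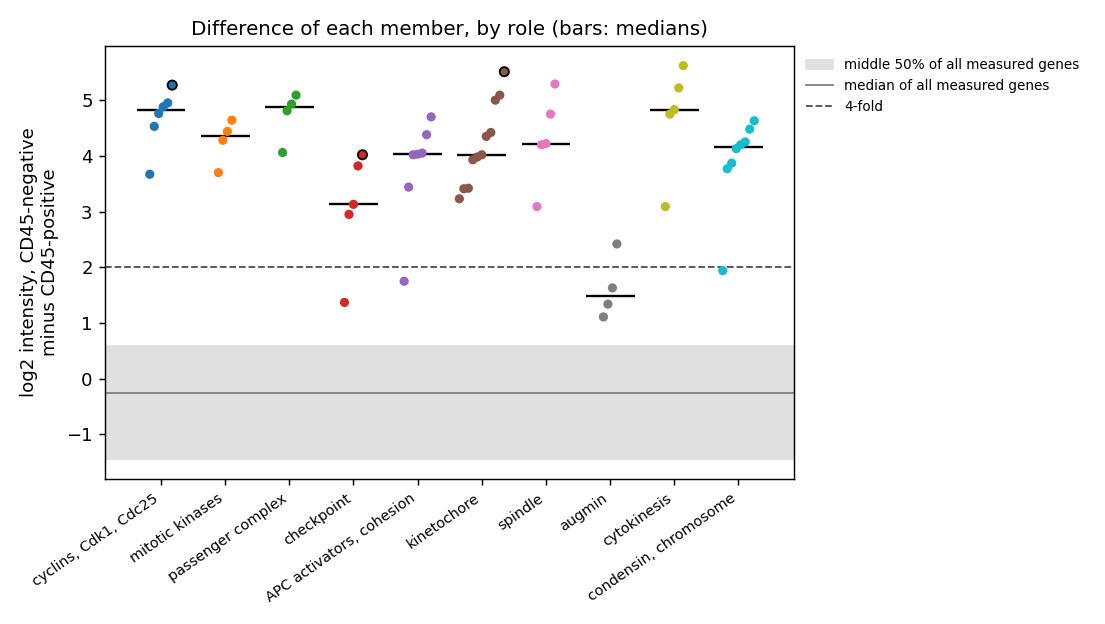
Log2 difference of each member, CD45- minus CD45+, by role; black bars are medians, points with a black rim are lower bounds, the grey band holds the central 50% of all measured genes and the dashed line marks 4-fold. Roles have medians from 3.13 to 4.87 apart from augmin at 1.48, and Bub3, Pttg1, Smc4 and 3 augmin genes lie under the 4-fold line.

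The activators of the anaphase-promoting complex and the genes of cohesion and separation were higher in 6 of 7 cases. Cdc20, the activator of metaphase, had 21272 against 1957 (10.9-fold), with a second probe set at 3.46 on the log2 scale and the other giving a bound of 2.36. Fzr1, the activator of late mitosis and G1, had 13535 against 818 (16.5-fold) by its only probe set, so the difference was no smaller for the later activator than for the earlier. Cdca3, a mitotic entry factor, had 23623 against 1135 (20.8-fold), and Cdca5 (sororin), which holds cohesin closed, 11483 against 703 (16.3-fold). Sgo1 (shugoshin), which shields centromeric cohesin, had 5141 against 197.6 (26-fold). Espl1 (separase), the protease that cuts cohesin, had 3590 against 221.9 (16.2-fold). Its inhibitor Pttg1 (securin) went with it by far less, at 23642 against 7035 (3.36-fold), with 3 probe sets from 0.74 to 1.75 on the log2 scale.

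Kinetochore and centromere genes were all higher, each of the 11 at least 9.36-fold. The 4 subunits of the Ndc80 complex, which grips microtubules, had log2 differences of 3.41 (Ndc80), 4.42 (Nuf2), 3.93 (Spc24) and 5.0 (Spc25); these are differences, since levels of different probe sets cannot be compared. Ndc80 stood at 3438 against 323 and Spc25 at 14327 against 447. Ska1, of the complex that helps Ndc80 hold on, had 4608 against 74.3 and was at least 45.6-fold higher, while its other probe sets, also under the level in the CD45+ array, gave bounds of 1.52 and 0.59 on the log2 scale. Cenpe, the kinetochore kinesin, had 4514 against 277.5 (16.3-fold). Cenpf, a large protein of the outer kinetochore, had 9111 against 267 (34.1-fold). Of the inner kinetochore proteins, Cenpk had 12853 against 629 (20.4-fold) and Cenph 1259 against 134.5 (9.36-fold). The other probe sets of Cenpk, above the level in both arrays, gave smaller log2 differences of 2.77 and 2.76. Cenpn, which reads the centromeric nucleosome, had 3151 against 294 (10.7-fold). Kntc1 (Rod), which recruits dynein and checkpoint proteins, had 3226 against 204.7 (15.8-fold).

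Among the proteins that organise spindle microtubules, all 5 were at least 8.53-fold higher. Tpx2, the activator of Aurora A, had 12502 against 319, a log2 difference of 5.29. Its other 3 probe sets were under the level in the CD45+ array and gave bounds of 4.05, 1.14 and 0.67. Hmmr, a spindle pole protein, had 6010 against 327 (18.4-fold), with 5 probe sets between 3.80 and 4.37. Nusap1, which bundles spindle microtubules, had 24614 against 1318 (18.7-fold). Ckap2 had 9329 against 348 (26.8-fold) and its relative Ckap2l 2841 against 333 (8.53-fold).

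The augmin complex, which seeds new microtubules on the sides of existing ones, stood apart. Of its 4 listed subunits only Haus4 passed 4-fold, at 6915 against 1289 (5.36-fold). Haus1 had 2141 against 995 (2.15-fold), Haus6 1432 against 463 (3.09-fold) and Haus8 1612 against 637 (2.53-fold). The second probe set of Haus6, at 248.3 against 209.1, gave a log2 difference of 0.25. None of the 4 subunits outside the list passed 4-fold: their log2 differences were 0.88 (Haus2), 0.57 (Haus3), 1.63 (Haus5) and -0.02 (Haus7, whose sign turns under quantile normalization and both centrings). Over all 8 subunits the median was 1.22, and 1 of 8 passed 4-fold, a share near that of all measured genes.

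All 5 genes of the central spindle and cytokinesis passed 4-fold, with a median log2 difference of 4.83. Anln (anillin), which ties the contractile ring to the membrane, had 9063 against 184 (49.3-fold). Its second probe set, at 157.6 against 16.9, lay under the detection level in the CD45+ array and gave a bound of 0.64 on the log2 scale. Prc1, which bundles the central spindle, had 10072 against 270.5 (37.2-fold) and a second probe set at 5.39. Ect2, the activator of RhoA at the cleavage site, had 4671 against 164.2 (28.4-fold), and Cit (citron kinase), which keeps the midbody, 4593 against 171.0 (26.9-fold). The other 3 probe sets of Cit gave 1.93 and, with the CD45+ value under the level, bounds of 1.63 and 1.31. Racgap1, the centralspindlin subunit that binds Ect2, was lowest of the 5 at 7827 against 917 (8.53-fold).

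Of the condensins and chromosome proteins, 7 of 8 passed 4-fold. Mki67, the coat protein of mitotic chromosomes known as Ki-67, had 54290.0 against 2199 (24.7-fold). Top2a, the topoisomerase that untangles sister chromatids, had 27858 against 1587 (17.6-fold). The 3 subunits found only in condensin I were close to each other, with Ncapd2 at 11590.1 against 852 (13.6-fold), Ncapg at 8920.0 against 399 (22.4-fold) and Ncaph at 17268 against 909 (19-fold). Of the subunits of condensin II, Ncapg2 had 14750.3 against 803 (18.4-fold), while Ncapd3 and Ncaph2, which are not on the list, had log2 differences of 2.75 and 1.57. Smc2, a motor subunit of both condensins, had 18996 against 1303 (14.6-fold). Its partner Smc4 had 21344 against 5549, 3.85-fold, and 3 probe sets gave 1.93, 1.94 and 2.0, so it sat just under the 4-fold line.

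Members nearest to that line were therefore Smc4 (1.94), Pttg1 (1.75) and Haus6 (1.63) below it and Haus4 (2.42) and Bub1b (2.95) above it. No member lay between 2.42 and 2.95, and 51 of the 59 were at least 8-fold higher, beside 4.54% of all measured genes. The 6 members under 4-fold were Bub3, Pttg1, Smc4, Haus1, Haus6 and Haus8. Bub3, Pttg1 and Smc4 were well above the detection level in both arrays, so none of these small differences is a bound.

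Where a member had several measured probe sets, they gave the same sign. All 123 measured probe sets of the members were brighter in the CD45- array. The CD45+ value was under the detection level in 31 of them. Those 31 counted as measured through the CD45- array alone, so their sign is no separate sign of agreement. With the level in place of the CD45+ value, 92 of the 123 passed 4-fold. Of 37 members with several measured probe sets, the spread (pooled SD of the log2 difference within a gene) was 1.33, against 0.83 over 5474 genes of the whole array, both with values under the level set to it, so bounds enter this spread. This spread is not replicate error. Incenp had 1 more probe set, under the detection level in both arrays, at 5.2 against 6.2.

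**Figure D4:**
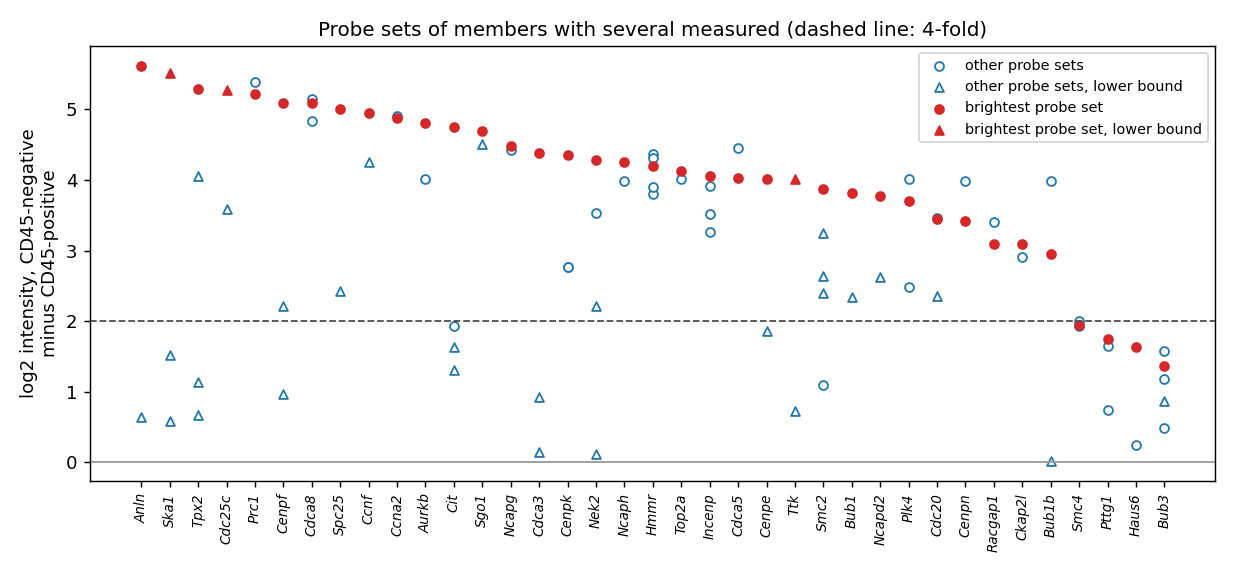
Log2 difference, CD45- minus CD45+, of every measured probe set of the 37 members that had several; filled points are the brightest probe set, which stands for the gene, and triangles are lower bounds, with the CD45+ value at the detection level. All points lie above 0. The low points of Anln, Ska1, Nek2 and Bub1b are bounds, while the lowest of Haus6 (0.25), Bub3 (0.49), Pttg1 (0.74) and Smc2 (1.09) were above the level in both arrays.

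Paralogue pairs among the members differed from each other by less than 1 log2 unit in most cases. The gap in log2 difference was -0.16 for Aurka minus Aurkb, 0.28 for Ncapg minus Ncapg2, -0.61 for Cdc20 minus Fzr1, 0.74 for Plk1 minus Plk4 and 0.87 for Bub1 minus Bub1b. It was -1.60 for Cdc25b minus Cdc25c, where Cdc25c is a bound, and 1.92 for Smc2 minus Smc4. None of these gaps could be tested, and they vary with the probe set used. The second probe set of Cdc25c gave a bound of 3.59, beside 3.67 for Cdc25b, and that of Aurkb gave 4.02, below the 4.64 of Aurka. A second probe set of Bub1b gave 3.98, above the 3.82 of Bub1, and the other probe sets of Plk4 gave 4.01 and 2.49. Those of Smc2 gave 1.09 and bounds of 3.25, 2.64 and 2.4. The gaps under 1 log2 unit are smaller than the pooled spread of 1.33 between probe sets of a member.

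Other genes of mitosis, taken from lists of the same machinery, were less often high. Of 124 such genes above the level, 52 passed 4-fold upward and 3 downward, with a median log2 difference of 1.64. Over all measured genes the shares past 4-fold were 8.31% upward and 16.8% downward. Mitotic kinesins came closest to the members, with 9 of 11 higher and a median of 3.73, led by Kif11 (5.11), Kif18b (4.65) and Kif4 (4.41). Other kinetochore and centromere genes had 18 of 27 higher and a median of 2.51, with Sgo2a (4.64), Cenpi (4.03) and Cenpp (3.87) at the top. DNA replication genes, measured for comparison, had 22 of 30 higher and a median of 2.69, led by Cdc6 (5.04), Rrm2 (4.82) and Orc1 (4.70).

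Core subunits of the anaphase-promoting complex and cohesin showed small differences. Among 17 genes of the anaphase-promoting complex, the 3 that passed 4-fold were its ubiquitin-conjugating enzymes Ube2c (5.32) and Ube2s (2.99) and its inhibitor Fbxo5 (3.67), and none was a core subunit; the list's median was 0.32. Cohesin and its regulators had a median of 0.83 and, near the 8.31% share of all measured genes, 1 of 13 higher. That gene was Esco2 (8224 against 334), which acetylates cohesin in S phase, while its relative Esco1 was 4.09-fold lower (751 against 3073). Esco1 sat at the line: its log2 difference of -2.03 became -1.91 after quantile normalization and -1.99 and -1.53 after the centrings over all probe sets and over genes measured in both arrays. The subunit Rad21 had a difference of 1.79. Other augmin and gamma-tubulin ring genes had 2 of 13 higher, Mzt1 (2.54) and Tubg1 (2.0), and a median of 0.57, with Tubgcp2 at 1.64. Of the other checkpoint genes, Mad1l1 (2.70) and Mad2l1bp (2.09) passed 4-fold and Trip13 (1.26) did not.

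Regulators of entry and of mitotic transcription were mixed. Of 11 entry regulators 5 were higher, with the Cdk-binding proteins Cks1b (3.16) and Cks2 (2.95) and the Plk1 activator Bora (2.52) at the top. Of 15 transcription genes 5 were higher and 1 lower: Mybl2, which joins MuvB in late S phase, had 4942 against 260.4 (19-fold), and E2f4 2333 against 297 (7.86-fold). Rbl2 (p130), the pocket protein that joins MuvB in resting cells, was 5.82-fold lower, at 301 against 1751, and both of its probe sets gave that sign (-2.54 and -2.61); it stayed past 4-fold under quantile normalization (-2.11) and both centrings (-2.50 and -2.04).

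Centrosome and centriole genes had 6 of 12 higher, with Aspm (4.69), Stil (4.35) and Tacc3 (3.69) at the top. Cep55, the midbody protein that recruits the abscission machinery, ran against its list. It stood at 109.1 in the CD45- array, under 127.3, the receptor percentile of that array alone, and at 596 in the CD45+ array, a log2 difference of -2.45. That call was lost, at -1.94, after quantile normalization and after centring on genes measured in both arrays, and at -0.96 with the mean of probe sets.

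**Figure D5:**
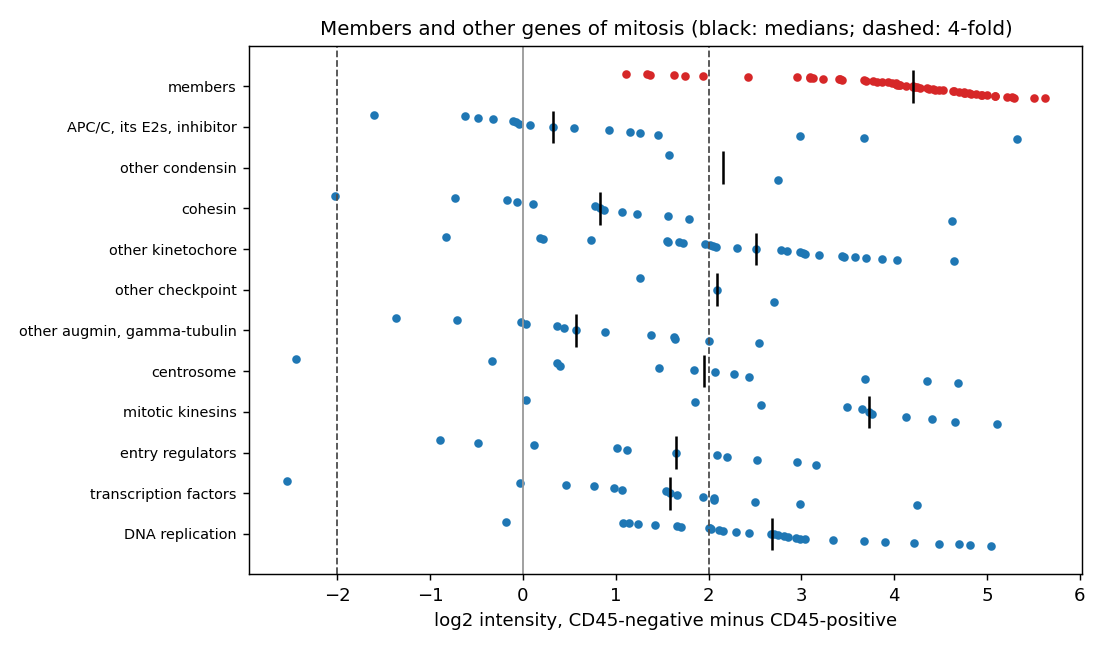
Log2 difference, CD45- minus CD45+, of the members (red) and of the measured genes of 11 related lists (blue); black bars are medians and dashed lines mark 4-fold in either direction. Members have a median of 4.20, mitotic kinesins 3.73 and DNA replication genes 2.69, while the anaphase-promoting complex list lies near 0.32 apart from Ube2c, Ube2s and Fbxo5.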

How the data were processed

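Total RNA of 2 sorted samples was labelled as biotinylated cRNA with a 3' in vitro transcription kit, per the labels' protocols, and hybridised to 1 array each. The submitters' processing notes name GCRMA and Partek 6.6 without roles. The deposited values are 1 intensity per probe set on a linear scale; the step that scaled them is not settled, and the table has no detection calls. Of 45037 probe sets, the platform annotation gives 34945 a single symbol, 932 several and 9160 none; 34741 matched the RefSeq table of GRCm38.p6 by Entrez identifier and 0 symbols changed. Only single-symbol probe sets were used. Values were converted to log2, and each gene took the probe set with the highest mean log2 intensity. A value at or under 101.1 was set to that level, which makes the difference a bound. The call rule was 4-fold. With 1 array per group there was no test, and the number of arrays limits the precision of every value. All 60 members could be named, with the 3 largest absolute differences of each other list and any gene called against its list's direction. Named markers were Ptprc, Alas2, Klf1 and the brightest measured gene of a list in the CD45- array. The members, lists and rules were chosen with earlier results of these data known. The complexes, with Haus2, Haus3, Haus5 and Haus7, and the counts around the 4-fold line were chosen after their values were seen. So were the marker genes Cdh5, Afp, Gata2, Elane, Mpo and Flt3. Alternatives covered scaling, choice of probe set, detection level, an offset and the fold threshold. Protein comparisons of paralogues were planned but not run, and no coordinates are given for array values. Python 3.11.15, numpy 2.4.6, pandas 2.3.3 and matplotlib 3.10.9 were used, and the functions were tested on simulated data.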

Additional observations from a re-analysis of the deposited data

How the results depend on the processing

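The count of members at least 4-fold higher stayed between 51 and 56 of 59 under quantile normalization, median centring over all probe sets or over genes measured in both arrays, the mean of probe sets, omission of probe sets marked _s_at, _x_at or _a_at, the 99th percentile as detection level, a level for each array, no level, and an offset of 50. With the dimmest probe set of each gene it was 38 of 54. Thresholds of 2-fold and 8-fold gave 59 and 51. The members' median ran from 3.32 (dimmest probe set) to 4.71 (centring on genes measured in both arrays), and the median of all measured genes from -0.38 to 0.12. Other mitosis genes higher numbered 36 to 69 over the settings, against 52 on the deposited scale: 36 with the dimmest probe set, 44 with the mean of probe sets, 59 after quantile normalization and 69 after centring on genes measured in both arrays. Over these settings 45 of 59 members kept their side of 4-fold wherever they were measured, and no member changed sign where measured. The dimmest probe sets of Aurka, Racgap1, Incenp, Nusap1 and Top2a were under the level in both arrays. That setting therefore gave no value for these genes. It put 10 other members that had passed 4-fold under that line. Of these, Smc2 (1.09) was above the level in both arrays, and the rest, such as Bub1b (0.02) and Nek2 (0.11), were bounds. Aurka had 1.82 with the mean of probe sets, which takes in its dim probe set at 16.4 against 11.1. Cdca3 and Ska1 had 0.92 and 0.59 without the marked probe sets, from probe sets at 190.8 against 28.0 and 151.8 against 7.3. In these cases of Aurka, Cdca3 and Ska1 the CD45+ value was under the detection level, so the differences are lower bounds. Why these probe sets were dim was not tested. Haus6 passed 4-fold after quantile normalization (2.08). Smc4, Pttg1 and Haus6 did so after centring on genes measured in both arrays. No paired analysis was possible because each group had 1 array.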
